A study of Homo sapiens with 3 samples.

Results

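The enzymes that write and erase methylation on lysine 27 of histone H3 (H3K27) were examined as 10 genes on arrays of 3 stable PANC-1 lines. They are the H3K27 demethylases KDM6A and KDM6B, and EZH1, EZH2, SUZ12, EED, RBBP4, RBBP7, AEBP2 and JARID2 of Polycomb repressive complex 2 (PRC2). The genes were chosen by name, and all 32 probe sets that the platform annotation assigns to one of them alone were taken, of 54613 on the array. Of these, 24 were over the floor in at least 1 array and 21 in all 3. The floor is the pooled median of all signals, log2 5.48, under which a signal was treated as unmeasured. PANC-1 is a widely used, established cell line from a human ductal adenocarcinoma of the pancreas. The control line carries the empty MSCV vector, a retroviral vector, the next line expresses wild-type JMJD3, which is the protein of KDM6B, and the last a mutant JMJD3. The labels record no other treatment. The mutation is not named in the labels, nor whether a line is a clone or a pool. Each line is represented by 1 array of biotin-labelled total RNA.

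H3K27 trimethylation is deposited by PRC2 and marks silenced genes, many of them developmental regulators. EZH2, or its relative EZH1, is the methyltransferase, and it is active only together with SUZ12 and EED. The WD40 proteins RBBP4 and RBBP7 bind histones and also belong to other chromatin complexes, while AEBP2 and JARID2 are accessory subunits that help recruit PRC2 or raise its activity. KDM6A, also called UTX, and KDM6B remove the methyl groups. In tumours EZH2 is often abundant in dividing cells, and KDM6A is a tumour suppressor lost in some pancreatic cancers.

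With no replicates there is no test, and every difference below compares 2 arrays. Signals at or under the floor were set to it, the log2 signals of 2 arrays were subtracted, and the result is also given as a fold. Probe sets differ in how strongly they bind, so signals are compared between arrays for one probe set and never between genes. A difference was called at 2-fold, with 1.5-fold as a second, lower threshold. The brightest probe set stood for a gene. All 10 genes were measured by it in each comparison. The arrays had median log2 signals of 5.48 to 5.50, and their number limits the precision of every value. Over the whole array 21% of the probe sets held one value in all 3 arrays, and so did 6 of the 32 probe sets here, 1 of them over the floor. Equal values in 2 arrays are thus no evidence of equal transcript levels.

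The labelled cell type was checked with marker genes. Of 7 ductal carcinoma markers 6 were over the floor in every array, and E-cadherin (CDH1) was under it in all. KRT19, a ductal keratin, read 5.55 in control, just over the floor, 8.0 in the wild-type and 7.73 in the mutant array. Its other probe set, 228491_at, was under the floor in all. KRT19 was the extreme of the 6. Against control their log2 differences ran from -0.34 for EPCAM to 2.45 with wild-type, with a median of 0.14. With mutant they ran from -1.09 for KRT8 to 2.18, with a median of -0.46. None of the 2 acinar, 3 endocrine and 3 leukocyte markers read here was over the floor in any array. Of 3 endothelial markers 1 was over it, PECAM1, and of 4 fibroblast markers 2, COL1A1 and DCN. PANC-1 is generally described as carrying a homozygous deletion of CDKN2A. Its probe set 207039_at nevertheless read 8.69 in control and 9.15 in both JMJD3 arrays. Likewise 209644_x_at read 9.82 in the control, 10.32 in the wild-type and 9.95 in the mutant array. These 2 go against that description, while 211156_at was under the floor in every array, and what these probes bind was not tested.

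KDM6A read lowest in the wild-type JMJD3 array. Its brightest probe set, 203992_s_at, had log2 signals of 7.57 in the control, 6.75 in the wild-type and 7.34 in the mutant array. The wild-type array was thus 1.77-fold lower than control and 1.51-fold lower than mutant, while mutant and control differed by 1.17-fold. The second KDM6A probe set, 203991_s_at, lay close to the floor, at 5.51 in the control, 5.39 in the wild-type and 5.98 in the mutant array. Wild-type read lowest in it too, under the floor and at least 1.41-fold lower than mutant, but here the mutant array was 1.39-fold above control. The remaining 203990_s_at and 238220_at read 3.41 and 3.36 in every array, far under the floor. The size of the KDM6A difference between wild-type and control therefore rests on 1 probe set, and its suffix marks probes that other transcripts may share.

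KDM6B, the gene that was introduced, was read by 5 probe sets that split in 2 kinds. Probe set 1556067_a_at read 5.53 in the control, just over the floor, 6.73 in the wild-type and 6.45 in the mutant array. Both JMJD3 lines were above control in it, by 2.30-fold and 1.89-fold, and they differed from each other by 1.21-fold. In 1556066_at the JMJD3 arrays differed by 1.18-fold, at 6.75 and 6.51 against 6.02 in control. Both control signals lie under log2 6.17, the alternative floor at the 60th percentile. The size of these gaps to control therefore depends on the floor. The brighter 41387_r_at and 41386_i_at spanned at most 0.11 log2 units over the 3 arrays, and 213146_at was under the floor at 5.12. Their positions relative to the introduced sequence are not stated. The level ones are therefore no check of the labels, and introduced and endogenous KDM6B cannot be told apart.

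Among the core subunits of PRC2, SUZ12 differed most at the brightest probe sets. Its probe set 212287_at read 11.25 in the control, 10.53 in the wild-type and 11.41 in the mutant array. Wild-type was 1.65-fold lower than control and 1.84-fold lower than mutant, and mutant lay 1.12-fold above control. SUZ12 is the scaffold on which the other core subunits assemble. Its dim probe set 1566191_at was over the floor only in control, at 5.76, against 4.90 with wild-type and 4.99 with mutant. That makes control at least 1.21-fold higher than either, and the JMJD3 arrays cannot be ordered in it. The last probe set, 1566190_at, read 3.54 in all arrays.

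EZH2, the main methyltransferase of dividing cells, was also lowest with wild-type JMJD3, by less. Its only probe set, 203358_s_at, read 10.15 in the control, 9.73 in the wild-type and 10.07 in the mutant array. Wild-type lay 1.34-fold under control and 1.27-fold under mutant, and neither is a call at 1.5-fold. EZH1, the paralogue that prevails in resting cells, had another order. Its brightest probe set, 32259_at, read 7.68 in the control, 7.73 in the wild-type and 8.17 in the mutant array, so that the mutant array was highest, 1.40-fold above control and 1.36-fold above wild-type. Probe set 203249_at had the mutant highest too, at 7.17 against 6.83 in control and 6.73 with wild-type. The dimmer 239197_s_at spanned 5.90 to 6.02 and did not show it, and 239198_at and 211310_at were under the floor.

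EED, the subunit that binds trimethylated H3K27 and so helps the mark to spread, was lowest with wild-type JMJD3 in both of its probe sets. The brighter, 209572_s_at, read 11.06 in the control, 10.79 in the wild-type and 10.95 in the mutant array, a 1.21-fold difference between wild-type and control. In 210656_at the signals were 7.33, 6.65 and 7.33 in the same order, and wild-type was 1.60-fold lower than each of the others. The size of the EED difference thus depends on the probe set, and its direction does not.

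RBBP4 and RBBP7 both read lower with wild-type than with mutant JMJD3, and against control the probe sets of RBBP4 disagreed. RBBP7, read by 201092_at alone, had signals of 12.28 in the control, 12.18 in the wild-type and 12.47 in the mutant array, with at most 1.22-fold between any arrays. RBBP4 had 6 probe sets. In the brightest, 210371_s_at, control was lowest at 10.93, with 11.21 for wild-type and 11.29 for mutant. In 237333_at the wild-type array was lowest, at 5.55 against 6.47 in control and 6.74 with mutant, 1.89-fold and 2.28-fold lower. Probe set 225396_at had the same order, at 6.90 in the control, 6.64 in the wild-type and 7.20 in the mutant array, with smaller gaps. In 239071_at control was highest, at 7.81 against 7.52 and 7.55, and 217301_x_at spanned 9.99 to 10.07. The dim 244872_at was over the floor only in control, at 5.75. Against control no single direction can be given for RBBP4. Between the JMJD3 arrays wild-type was the lower in all 5 probe sets measured there, with log2 differences of -0.01 to -1.19, of which 3 were -0.08 or smaller in size.

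Of the accessory subunits, AEBP2 spanned the most, and at the brightest probe sets also the most of all 10 genes. AEBP2 is a zinc finger protein that stabilises PRC2 and stimulates its activity. Its probe set 225889_at read 10.51 in the control, 9.96 in the wild-type and 10.96 in the mutant array, so control lay between the JMJD3 arrays. Wild-type was 1.46-fold under control, mutant 1.37-fold above it, and the JMJD3 arrays differed 2.0-fold. That difference is -1.0 on the log2 scale, exactly at the threshold as the values were deposited to 2 decimals. The other AEBP2 probe set, 235184_at, stayed under the floor. JARID2, a catalytically inactive relative of the JmjC demethylases that guides PRC2 to its targets, was level at 9.45 in all arrays in 203298_s_at. Its probe set 203297_s_at was highest with wild-type, at 9.57 against 9.29 in control and 9.31 with mutant, a gap of 1.21-fold to control. The third, 240674_at, was under the floor.

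**Figure D1:**
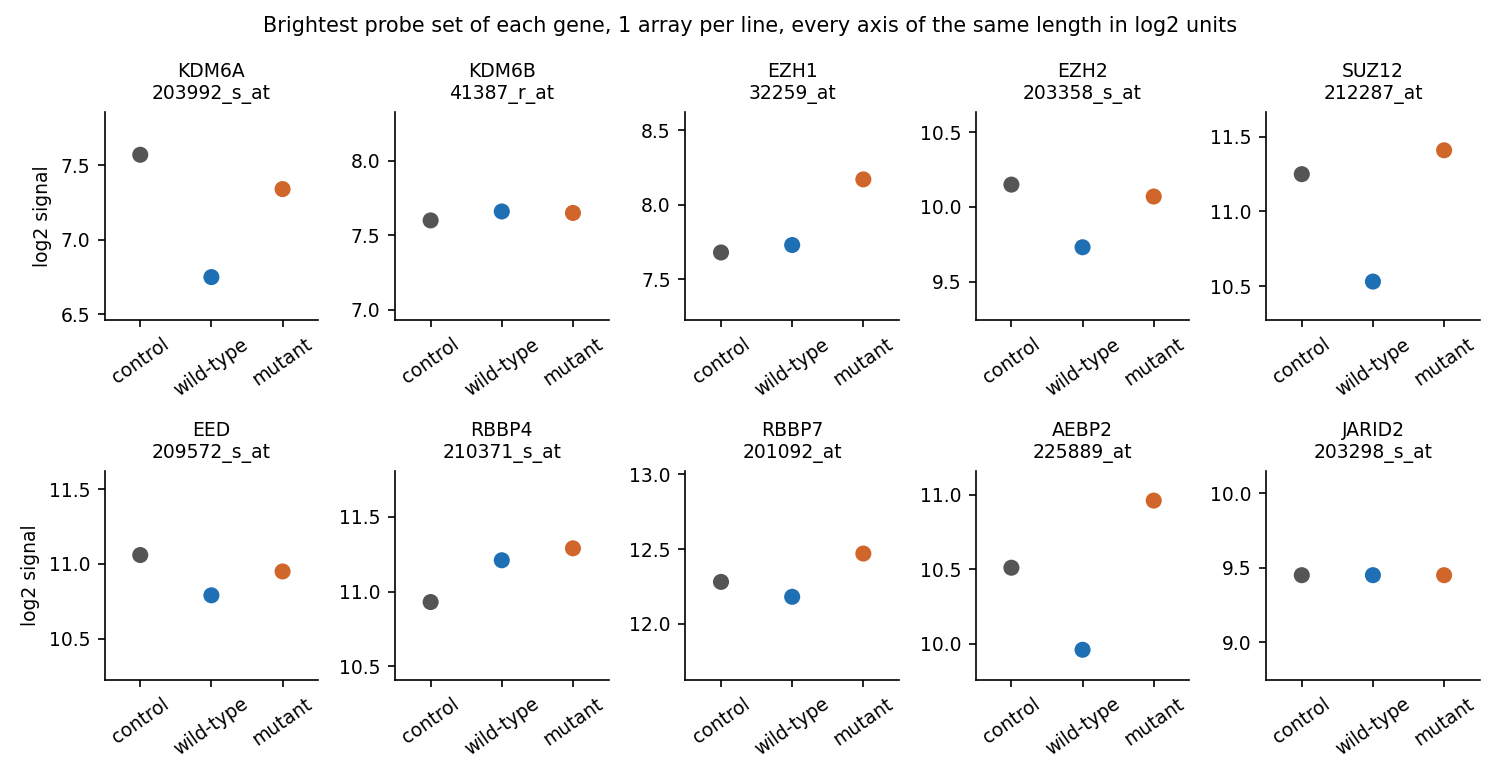
Log2 signal (y axis, log scale by construction) of the brightest probe set of each gene in the control, wild-type JMJD3 and mutant JMJD3 arrays (x axis), 1 point per array and no error bar since there are no replicates. The wild-type point is the lowest for KDM6A, EZH2, SUZ12, EED, RBBP7 and AEBP2, whereas KDM6B and JARID2 are nearly flat and EZH1 is highest with mutant JMJD3.

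Set side by side, the wild-type array was the lowest of the 3 for 6 of the 10 genes, namely KDM6A, EZH2, SUZ12, EED, RBBP7 and AEBP2, by any amount. Over all measured genes this holds for 27.5%. By 1.5-fold against both others it was lowest for 2 of 10, KDM6A and SUZ12, where the share over all genes was 6.64%. The mutant array was the highest for 5 of 10, AEBP2, EZH1, RBBP4, RBBP7 and SUZ12, against 30.4% of all genes, and the lowest for 0 of 10, against 30.9%. Over probe sets the wild-type array was lowest in 12 of the 24 that were over the floor (30.0% of all probe sets with a gene name), and by 1.5-fold in 4 of 24 (7.11%). Those 4 read KDM6A, SUZ12, EED and RBBP4. Probe sets of one gene read the same transcripts and are not independent of each other. With 10 genes and no replicates these shares are a description only.

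Against control, the wild-type array gave 0 of 10 genes at 2-fold, where 2.26% of all 12697 measured genes were called. At 1.5-fold 2 of 10 were called, both lower, beside 9.08% of all genes called lower and 16.2% called in either direction. The median difference of the 10 genes was -0.18 on the log2 scale, with a range of -0.82 for KDM6A to 0.28 for RBBP4, and the median over all measured genes was 0.05. Of the 24 measured probe sets only KDM6B's 1556067_a_at passed 2-fold, where 2.48% of all probe sets did. Its control signal lay just over the floor.

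Mutant JMJD3 against control gave no call among the 10 genes. At 2-fold 3.52% of all 12707 measured genes were called, and at 1.5-fold 12.9%. The differences ran from -0.23 for KDM6A to 0.49 for EZH1, with a median of 0.11 beside 0.00 over all genes. AEBP2 at 0.45 and RBBP4 at 0.36 followed EZH1, while EED at -0.11 and EZH2 at -0.08 were just under control. Both comparisons share the control array, so the 10 genes' values in them are not independent.

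The median of the 10 genes was farthest from 0 between the JMJD3 arrays, where calls over all genes were also most frequent. Wild-type was lower than mutant in 8 of 10, where 40.5% of all 12829 measured genes were lower by any amount. JARID2 was equal. AEBP2 was called at 2-fold, lower, as were 6.2% of all genes, with 8.81% called in either direction. At 1.5-fold AEBP2, SUZ12 and KDM6A were called, all lower, beside 15.9% of all genes called lower and 27.2% in either direction. With KDM6A at -0.59, that call stands barely past the 1.5-fold threshold. The median of the 10 genes was -0.32 and that of all genes 0.00. EZH1 at -0.44, EZH2 at -0.34 and RBBP7 at -0.29 lay between. A share of 3 in 10 is near the background of 27.2%. The highest of the 10 differences was the 0.01 of KDM6B.

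**Figure D2:**
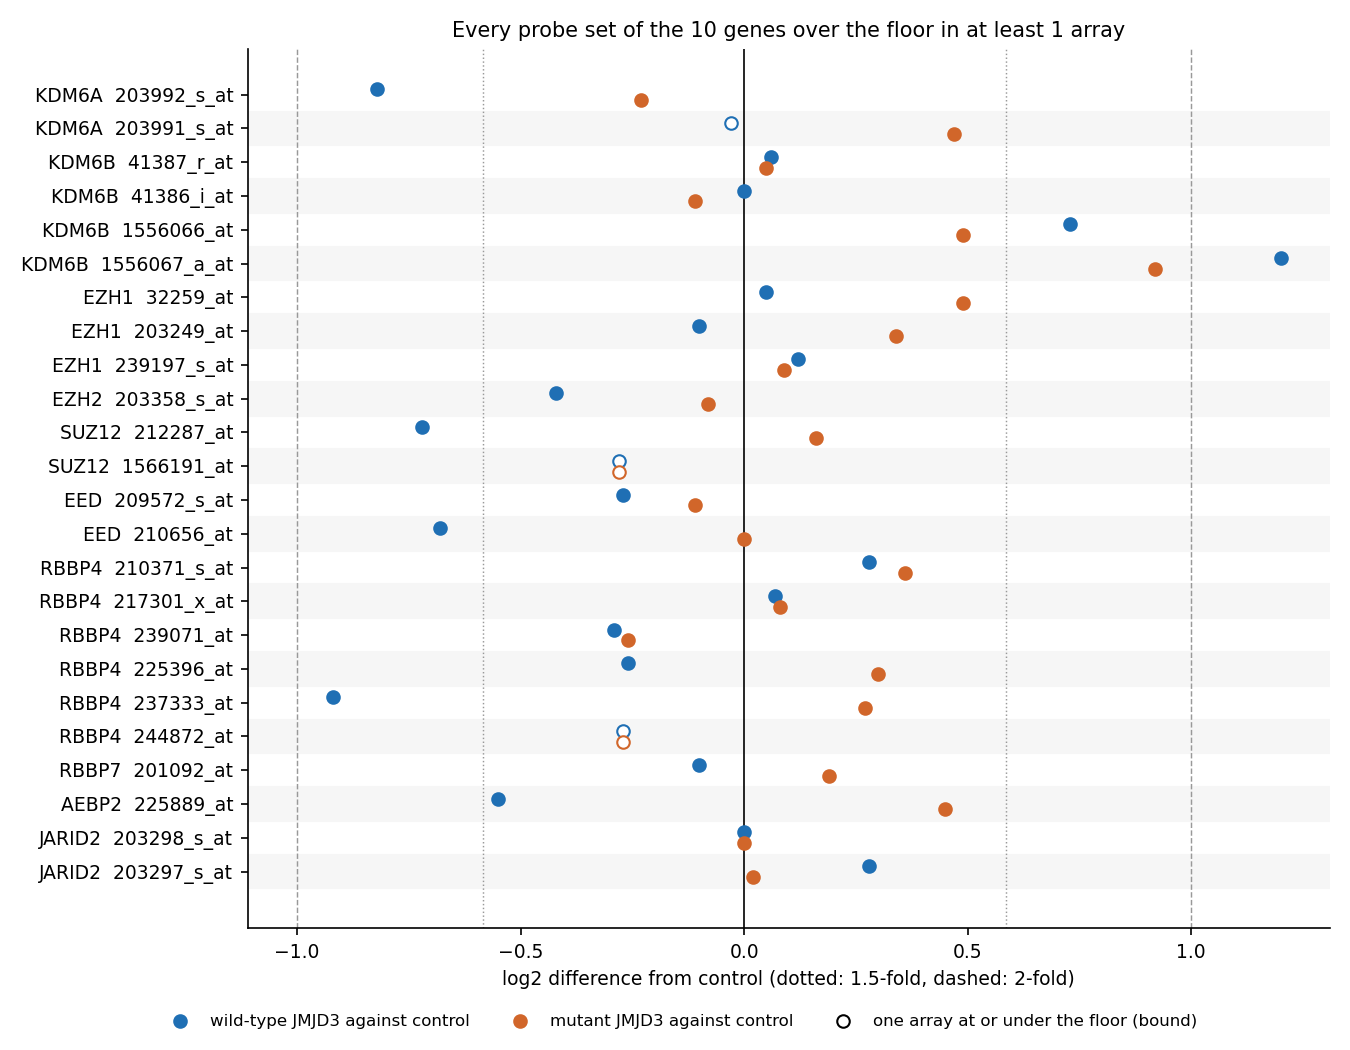
Log2 difference from control (x axis) of each of the 24 probe sets that were over the floor in at least 1 array (y axis), for wild-type JMJD3 in blue and mutant JMJD3 in orange, with open circles where 1 array was at or under the floor. The RBBP4 rows lie on both sides of 0, with wild-type from -0.92 to 0.28, and in KDM6B 1556066_at and 1556067_a_at lie farthest to the right.

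**Figure D3:**
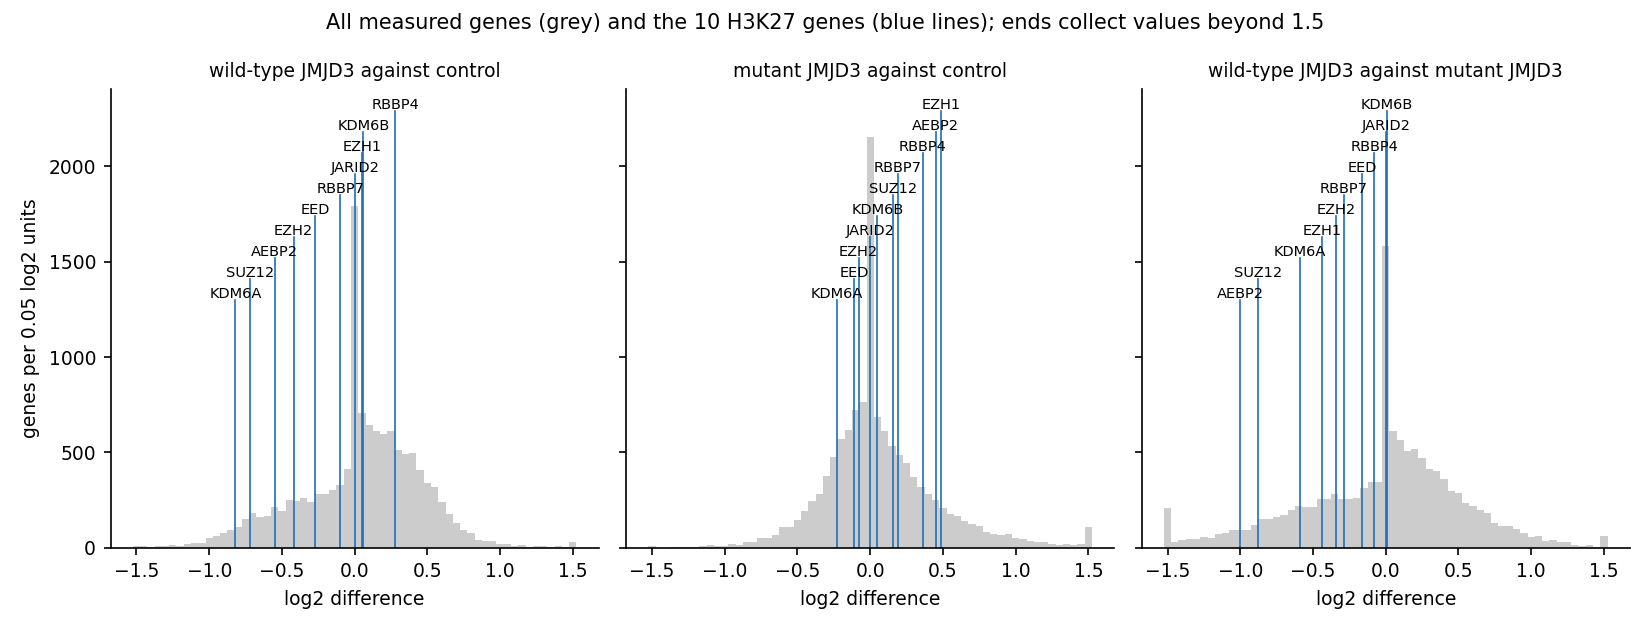
Number of genes (y axis, per bin of 0.05) by log2 difference (x axis) in the 3 comparisons, with the 10 genes as blue lines of staggered height for legibility. In wild-type against mutant the 10 lines lie from -1.0 to 0.01, while the grey distribution has its median at 0.00.

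Since SUZ12, AEBP2 and KDM6A were the genes lowest in the wild-type array against the mutant, the 250 bases before their start sites are shown, from RefSeq in build GRCh38.p14. All 10 genes were matched in the RefSeq promoter table. Capitals mark an E2F-type sequence (TTTCCCGC, TTTGGCGC, TTTCGCGC or TTTGCCGC) or a CCAAT box (CCAAT), each on either strand. They do not overlap in these windows. SUZ12 lies at chr17:31936757-31937006, AEBP2 at chr12:19440349-19440598 and KDM6A at chrX:44872938-44873187, all on the plus strand, and each window ends at the base before the annotated start.
SUZ12: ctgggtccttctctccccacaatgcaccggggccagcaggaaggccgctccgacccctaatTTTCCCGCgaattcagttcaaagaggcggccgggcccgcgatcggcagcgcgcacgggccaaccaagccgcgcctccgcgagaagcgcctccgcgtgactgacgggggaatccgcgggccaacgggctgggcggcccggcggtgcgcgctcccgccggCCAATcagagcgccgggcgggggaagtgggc
AEBP2: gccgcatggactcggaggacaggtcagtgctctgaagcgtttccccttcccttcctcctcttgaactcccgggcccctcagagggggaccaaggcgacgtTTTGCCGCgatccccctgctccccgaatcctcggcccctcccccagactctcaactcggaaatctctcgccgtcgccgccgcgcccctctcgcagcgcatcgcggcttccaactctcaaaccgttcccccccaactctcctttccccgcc
KDM6A: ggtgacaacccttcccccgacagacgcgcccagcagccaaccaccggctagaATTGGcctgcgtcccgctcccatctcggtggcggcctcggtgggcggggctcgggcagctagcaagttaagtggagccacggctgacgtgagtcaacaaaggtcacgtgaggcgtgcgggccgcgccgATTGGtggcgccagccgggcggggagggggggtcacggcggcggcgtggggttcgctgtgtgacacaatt
The E2F-type sequence begins 189 bases before the start in SUZ12 and 150 bases before it in AEBP2, and these letters are not in the KDM6A window. EZH1 holds it too, at 115 bases, so 3 of the 10 windows did, against 2.79% of 27305 promoters. CCAAT boxes were in 7 of 10 windows, those of KDM6A, EZH2, SUZ12, EED, RBBP4, RBBP7 and JARID2, against 33% of all. EZH2 had 4 of them, at 94, 66, 47 and 13 bases. The GC box GGGCGG was in 8 of 10, against 42.3%. The E-box CACGTG was in 2 of 10, against 6.49%, and the TATA box TATAAA in 1 of 10, against 11.1%. Of the other sequences searched on both strands, the ETS sequence CCGGAAG was in 0 of 10, against 8.82% of all promoters. The CRE sequence TGACGTCA (1.77% of all), the longer sequences of NRF1 (1.13%) and YY1 (0.256%) were in 0 of 10 as well. Overlaps between these sequences were not removed. The windows of the 10 genes held from 51.2% G and C in EED to 79.6% in RBBP7, beside a median of 58% over all promoters, and the shares are not matched for that. Any link between these sequences and the signals was not tested. A match of letters is a description of the sequence and shows no binding.

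The rest of the Polycomb machinery was taken from named lists. Of the other PRC2 accessory subunits, 6 of 7 were measured and EZHIP was under the floor. The counts of each list at 1.5-fold stand beside the shares over all genes given above, 16.2% for wild-type against control, 12.9% for mutant against control and 27.2% for wild-type against mutant, in either direction. Of the PRC2 accessory subunits 1, 0 and 3 of 6 were called in these comparisons. The one called against control with wild-type JMJD3 was LCOR, whose locus also encodes the PRC2 subunit PALI1, which read 8.85 in the control, 8.10 in the wild-type and 8.76 in the mutant array. MTF2, a Polycomb-like protein that binds CpG-rich DNA, was 1.45-fold under control at 9.29, 8.75 and 9.19 in control, wild-type and mutant. Against mutant, wild-type was lower for LCORL (1.82-fold) and LCOR (1.58-fold) and higher for PHF19, another Polycomb-like protein (1.60-fold). The list's median was -0.14 for wild-type and -0.06 for mutant against control.

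PRC1, the Polycomb complex that ubiquitinates histone H2A, had 20 of 24 listed genes measured. Its medians were 0.00, 0.02 and 0.00 in wild-type against control, mutant against control and wild-type against mutant, and 2, 3 and 4 of 20 genes were called, shares near or under those of all genes. Lower with wild-type than in control were PHC3, a polyhomeotic subunit (1.71-fold), and PCGF5, a ring finger subunit of variant PRC1 (1.59-fold), though PCGF5's 227935_s_at went the other way by 0.71. Mutant JMJD3 was above control for PCGF2 (1.77-fold) and the chromobox reader CBX7 (1.51-fold) and below it for YAF2 (1.53-fold). Other measured PCGF2 probe sets gave less, with log2 differences from control of -0.08, 0.40 and 0.49. Wild-type was under mutant for PHC3 (1.99-fold), RYBP (1.61-fold) and CBX7 (1.54-fold), and above it for L3MBTL2 (1.59-fold). Other probe sets of PHC3 gave less, with log2 differences of -0.13 and -0.52 between the JMJD3 arrays, and those of RYBP gave -0.15 and -0.49.

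KDM6A works within the KMT2C and KMT2D complexes, which methylate lysine 4 of histone H3 at enhancers, and all 9 listed partners were measured. In the same order of comparisons 1, 1 and 2 of 9 were called. KMT2C was the one called against control with wild-type JMJD3. Its brightest probe set, 222415_at, read 10.57 in the control, 9.81 in the wild-type and 10.36 in the mutant array, 1.69-fold lower than control. The other 3 measured KMT2C probe sets were lower as well, with log2 differences of -0.90 in 222414_at, -1.36 in 232940_s_at and -2.04 in 222413_s_at. KMT2D, the paralogue, had signals of 9.04, 9.41 and 9.36 in control, wild-type and mutant. WDR5, a core subunit of all such complexes, was 1.75-fold lower in mutant than in control in 223308_s_at. Its 225170_at held 9.60 in all arrays, which is no evidence of equal transcript levels. PAGR1 was 2.01-fold and WDR5 1.95-fold higher with wild-type than with mutant. In PAGR1's other probe set, 231878_at, that log2 difference was only 0.14. The list's medians were 0.00, -0.16 and 0.05.

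Of the H2A deubiquitinase PR-DUB, which acts against PRC1, 6 of 8 listed genes were measured, and 1, 0 and 2 of 6 were called. ASXL2 was 1.55-fold lower in wild-type than in control, at 8.64 against 9.27, and the log2 differences of its other measured probe sets ran from -0.50 to -1.01. Between the JMJD3 arrays OGT, the O-GlcNAc transferase, was 1.67-fold lower with wild-type and its partner HCFC1 1.87-fold higher. Acetylation of H3K27 excludes its methylation, and of 8 listed genes for its writers and removers all were measured, with 0, 2 and 3 of 8 called. CREBBP, an acetyltransferase, was 1.73-fold lower in mutant than in control, at 9.22 against 10.01. MBD3, of the NuRD deacetylase complex, was 1.62-fold lower, at 8.39 against 9.09. Other measured probe sets gave less, with log2 differences of -0.33 and -0.03 for CREBBP and of -0.33 and 0.01 for MBD3. Wild-type exceeded mutant for MBD3 (2.10-fold) and CREBBP (1.82-fold) and was under it for the deacetylase HDAC2 (1.69-fold). Here other probe sets gave log2 differences of 0.81 and 0.35 for MBD3, 0.43 and 0.03 for CREBBP and -0.08 for HDAC2. EP300 had signals of 8.23, 7.90 and 8.01 in control, wild-type and mutant.

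Genes known in textbooks as targets of Polycomb or EZH2, outside the HOX clusters, were mostly dim. Of 17 read, 7 stayed at or under the floor in every array, among them PAX3, TBX5, NKX2-2, NEUROG2 and OLIG2. Of the 10 measured, 3 were higher in wild-type than in control at 1.5-fold and 0 lower, where 7.15% of all genes were called higher. CDKN1C, the imprinted cell cycle inhibitor p57, read 8.41 in the control, 9.48 in the wild-type and 9.33 in the mutant array, and was 2.10-fold and 1.89-fold above control. Its 3 other measured probe sets were above control as well in both JMJD3 arrays, by 0.46 to 0.85. SOX17, an endoderm transcription factor, was 2.06-fold and GATA6, a regulator of pancreatic epithelium, 1.85-fold higher with wild-type. SOX17 read 5.54 in control, just over the floor, and its log2 difference of 1.04 became 0.41 once the 60th percentile served as the floor and 0.10 as the median over its probe sets, where that of GATA6 went from 0.89 to 0.45. With mutant JMJD3, KLF2 was 3.43-fold and CDKN2B 2.0-fold above control. The other KLF2 probe set, 226646_at, was level at 6.01 to 6.03. CDKN2B read 5.52 in control, also just over the floor, and its log2 difference was 0.35 with the higher floor and 0.02 as the median over its probe sets. Of the 10, 5 were lower than control with wild-type by any amount. The list's median was 0.16, and its direction depended on the processing, at 0.38 if the floor was set at the 60th percentile, 0.00 if at the 40th and -0.02 without _s_at and _x_at probe sets. With mutant against control 3 of 10 were called, and between the JMJD3 arrays 4 of 10.

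**Figure D4:**
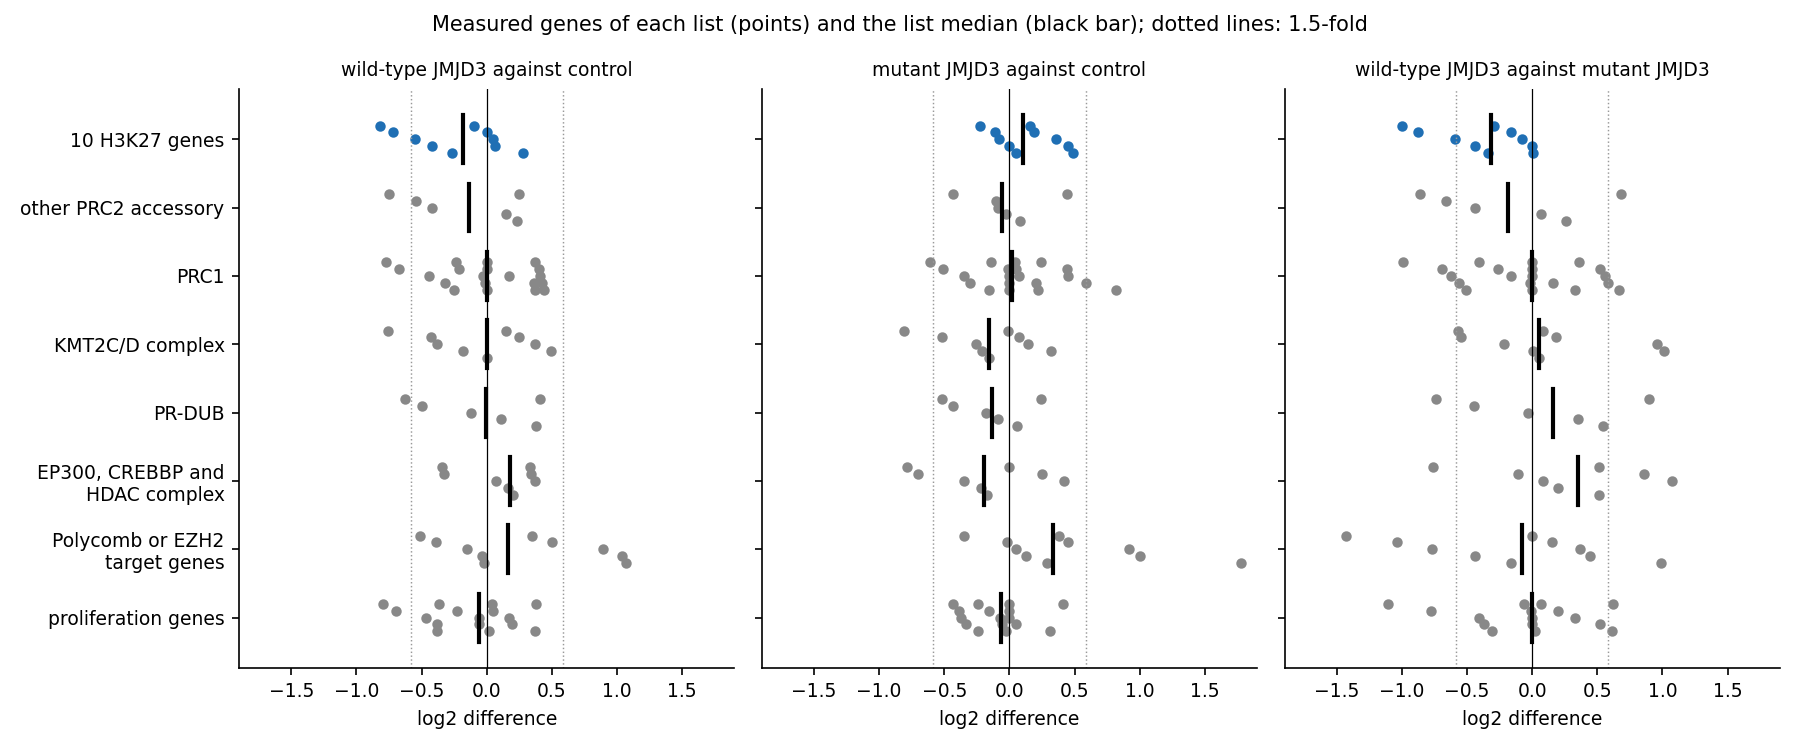
Log2 differences (x axis) of the 10 genes in blue and of the measured genes of each list in grey (y axis), with the list median as a black bar, in the 3 comparisons. The median of the 10 genes is -0.32 in wild-type against mutant, while that of PRC1 is 0.00 and that of the KMT2C/D complex 0.05.

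EZH2, EED and SUZ12 are more abundant in dividing cells, so proliferation genes are given beside them. All 16 listed were measured, with a median of -0.06 for wild-type against control, 7 above and 9 below. In the 3 comparisons 2, 0 and 4 of 16 were called. MKI67, the proliferation marker, was 1.74-fold lower in wild-type than in control and TOP2A, a topoisomerase of S and G2 phase, 1.62-fold. In MKI67's 212021_s_at and 212022_s_at the mutant array was as low, with log2 differences from control of -0.80 in each. Those of wild-type were -0.77 and -0.79. In 212020_s_at they were -0.56 for wild-type and -0.29 for mutant. PCNA had signals of 12.28, 12.22 and 12.28 in control, wild-type and mutant, and CCNB1 11.42, 11.80 and 11.18. Between the JMJD3 arrays TOP2A was 2.16-fold and CDK1 1.72-fold lower with wild-type, and CCNB1 1.54-fold and MCM5 1.53-fold higher. The other CCNB1 probe set, 228729_at, gave a log2 difference of 0.10 there, and that of MCM5, 201755_at, 0.60. The list thus held genes that read lower with wild-type, as SUZ12 did, and genes that read higher, and its part in the PRC2 values was not tested.

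For the genes that spanned at least 1.5-fold, the 3 nearest of 8567 bright genes were found by Euclidean distance over both differences from control, which rest on 3 arrays. KDM6A lay nearest to RNF6, U2SURP and BMS1P1, each at a distance of 0.01. SUZ12 lay nearest to EIF2S2 and TMX3 at 0.01 and to KMT2A at 0.02. KMT2A read 9.79 in the control, 9.07 in the wild-type and 9.97 in the mutant array. Nearest genes are picked for small distances, so these distances are no evidence of a link. AEBP2 lay nearest to ACER3 at 0.00, and to C18orf54 and USP49 at 0.01.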

How the data were processed

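The deposited values of 3 Affymetrix arrays, 1 per line, were log2 signals from 2.42 to 14.94. MAS5, the Affymetrix signal algorithm, is named per the submitters' processing notes, with no settings. How the arrays were normalized to each other is not stated. The sorted log2 columns as deposited differ by at most 0.14. A normalization that equalises arrays would hide a shift of all genes.

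Gene names come from the platform annotation: 41091 had 1 gene, 1801 several and 11721 none. Of the gene identifiers 41037 matched RefSeq (GRCh38.p14). The brightest probe set by mean signal stood for each of 19775 genes. Signals were floored at log2 5.48, a gene was measured where at least 1 of 2 arrays was over the floor, and bright means over log2 7.59.

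The 10 genes and the lists were chosen with earlier results of these data known. Named genes are the 10, list members past 1.5-fold (up to 4 a comparison and list), and the 3 nearest genes for each of the 10 that spanned 1.5-fold. MTF2, KMT2D, EP300, PCNA and the genes named as at or under the floor fall outside that rule and were named after their values were seen, as were marker genes. The motifs were chosen after the values were seen. BMI1 has only a probe set shared with another gene, and some other listed genes were not analysed here. The calculation was tested on simulated data. There were 7 alternatives: 2 scalings, 2 other floors, an offset, and 2 probe set rules. The software was Python 3.11.15 with pandas 2.3.3, numpy 2.4.6 and matplotlib 3.10.9.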

Additional observations from a re-analysis of the deposited data

Results flagged for a closer look

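One probe set outside the 32 described read more in the mutant JMJD3 array than in control. Probe set 213971_s_at is annotated to SUZ12 together with SUZ12P1, its pseudogene, and so belongs to neither alone. It read 8.58 in the control, 7.80 in the wild-type and 9.22 in the mutant array. The mutant array was 1.56-fold above control and 2.68-fold above wild-type, and wild-type was 1.72-fold under control, the same order as in SUZ12's own 212287_at. How much of this signal comes from the pseudogene was not tested.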

How the results depend on the processing

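The median of the 10 genes kept its sign in all 3 comparisons under the 7 alternatives, from -0.16 to -0.29 for wild-type against control, 0.02 to 0.16 for mutant against control and -0.29 to -0.44 for wild-type against mutant. The wild-type array was lowest for 6 of 10 genes under 5 alternatives, for 5 of 9 measured genes with the median over probe sets and for 5 of 7 without _s_at and _x_at probe sets. RBBP4 is among the 5 in both. This count and the list values were added to the alternatives after the data were seen. Calls depended on the scaling and on the probe set. For wild-type against mutant, KDM6A was not called at 1.5-fold under 3 alternatives. Its log2 difference was -0.58 with the arrays shifted to one median, just short of the threshold, -0.47 with quantile normalization and -0.44 with the offset. The place of KDM6A among the genes lowest by 1.5-fold in the wild-type array rests on that call. Taking each gene's median probe set value, 1 gene was called at 1.5-fold for wild-type against control (KDM6B, higher), 1 for mutant against control (AEBP2) and 1 for wild-type against mutant (AEBP2). KDM6A is unmeasured in that setting. Without _s_at and _x_at probe sets KDM6A, EZH2 and JARID2 are unmeasured, and EED is called at 1.5-fold where KDM6A was. At 2-fold, 0 genes were called for wild-type against mutant with the arrays shifted to one median, with the offset and with the median over probe sets, as AEBP2 lies at the threshold. RBBP4 against control turned from 0.28 to as low as -0.29 with wild-type. Of 41 list gene differences past 1.5-fold, 26 fell under it with the median over probe sets, 7 of 36 measured without _s_at and _x_at probe sets, 5 with the offset, 4 with the 60th percentile floor, 2 with quantile normalization and 0 with the other 2 alternatives. PCGF5 was reversed with the median over probe sets, at 0.71 for wild-type against control, which is the value of its 227935_s_at. KLF2 turned to -0.02 for mutant against control without _s_at and _x_at probe sets, the value of its level 226646_at. Why probe sets of one gene differ was not tested. No shift of one value was set against replicates, as there are none. Only the median spread among a gene's own probe sets, 0.17 to 0.24 log2 units, was available. It is taken within the same pair of arrays, so it does not measure the variation between replicates. No paired analysis was possible because each group has 1 array. Signals near the floor limit the KDM6A, KDM6B, SUZ12 and RBBP4 probe sets that lie there.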
